A study of Mus musculus with 6 samples.

Results

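The genes described here encode the machinery that modifies, reads and remodels chromatin. They were chosen by name, as a list of 58 genes, and every splicing event of the deposited table that carries one of those gene symbols was taken. The list held 472 of the table's 45595 events, in 56 of the 58 genes. The whole table covers 9590 genes. Tet1 and Hdac8 had no event in the table. The 472 events covered 420 distinct stretches of sequence, since a stretch can appear in more than one event.

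The RNA came from the mouse neuroblastoma line Neuro-2a, or N2a, and was extracted as total RNA. Per the labels, 3 libraries were from wild-type cells and 3 from cells with a knockout of hnRNP DL, an RNA-binding protein encoded by Hnrnpdl, and the series asked how alternative splicing differed between them. How the knockout was made, from how many clones, and whether each library was a culture of its own is not in the labels, so the p-values reflect no more than the spread among the 6 libraries. Each event has 2 sets of 3 libraries, and neither the table's headers nor the labels tie a set to a genotype. The sets are called set 1 and set 2, every difference is set 1 minus set 2, and no genotype is attached to either.

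Chromatin regulators act on histone tails, on DNA methylation or on the position of nucleosomes. Methyltransferases, acetyltransferases, deacetylases and demethylases write and erase marks, and remodellers such as the SWI/SNF (BAF) and CHD families move nucleosomes with energy from ATP. In neurons and neuron-like cells several of these proteins exist in splice forms that differ by a short exon, and some of those forms bind different partners.

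Each event sets an inclusion form against a skipping form. The inclusion level is the share of junction reads on the inclusion form after division by the length of each form, from 0 to 1. Junction reads, counted again in each event they touch, summed to 13501749 to 18185394 per library, and those of the members' events to 106495 to 133826. The marker genes of sympathetic neurons and neuroblastoma with an event were 7 of 20 (Chga, Chgb, Dbh, Elavl4, Gap43, Gata2 and Isl1), with a summed level of 755 to 1250 CPM (reads scaled to the sum of its library) in set 1 and 1260 to 1540 in set 2. Chgb and Dbh were lower in set 1, with log2 ratios of -1.01 and -2.37 (limma, adjusted p = 0.0132 and 0.00348). Markers of immune cells reached at most 0.493 CPM (Cd68, 1 of 5 listed), those of fibroblasts and endothelium 3.68 CPM (Pecam1, 1 of 6), and the 4 listed markers of epithelium had no event. In these bulk libraries fewer cells of a type and less RNA per cell cannot be told apart. Hnrnpdl itself had junction totals of 399, 428 and 432 CPM in set 1 and 469, 501 and 501 in set 2, a log2 ratio of -0.22 ± 0.09 (SE; limma, adjusted p = 0.392). Over the whole table limma called 88 genes, and 402 without library 1 of each set, and several values below are also given without those libraries.

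Most of the members' splicing was constant. Of the 472 events 335 were skipped exons, 53 pairs of mutually exclusive exons, 36 alternative acceptor (3′) sites, 24 alternative donor (5′) sites and 24 retained introns. In 382 events the alternative stretch was coding in an annotated transcript, in 27 it was coding in part, in 16 it lay in a UTR, and in 47 it was found only in transcripts with no coding sequence there. A mean of 20 or more reads over the 6 libraries was reached by 436 events (92.4%, against 86.5% of all events). Of these 436, 277 had a mean level over 0.9, 52 were under 0.1, and 107 (24.5%) lay between, against 22.7% of all tested events. Of the 307 skipped exons tested, 200 were included at 0.99 or more.

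None of the members' events was called by the quasi-binomial test run here, and the authors' deposited table called 1. The quasi-binomial test of the junction counts, with Benjamini-Hochberg adjustment over all tested events and a minimum change of 0.10, called 0 of the 436 member events, where it called 0.0279% of all tested events. The smallest adjusted p of a member event was 0.746. At an unadjusted p under 0.05 there were 20 member events in 13 genes (4.59%; 3.8% of all tested events), 12 with a higher level in set 1 and 8 with a lower one. With limma on logit levels, the second test run, 0 events were called among the members and 0 over the whole table. Its unadjusted p was under 0.05 in 13 of the 436 member events and 1161 of all 39419 tested events. The 3 libraries of a set lay entirely above or below the other 3 in 21 member events in 15 genes (4.82%; 5.93% of all tested events). Of the 472 member events, 1 was called in the authors' deposited table at an adjusted p under 0.05 and a change of 0.10 or more (0.212% of the members, 0.645% of all events). With no minimum change, 3 passed in the authors' deposited table (0.636%; 1.13% of all events). The median absolute change was 0.0063 over the members' tested events and 0.0083 over all, and 10 tested member events in 6 genes differed by 0.10 or more in mean level (2.29%; 2.62% of all). In 16 genes with an event no tested level lay between 0.1 and 0.9, among them Dnmt3a, Hdac1, Jarid2, Rcor1, Sin3b and Smarcd1.

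**Figure D1:**
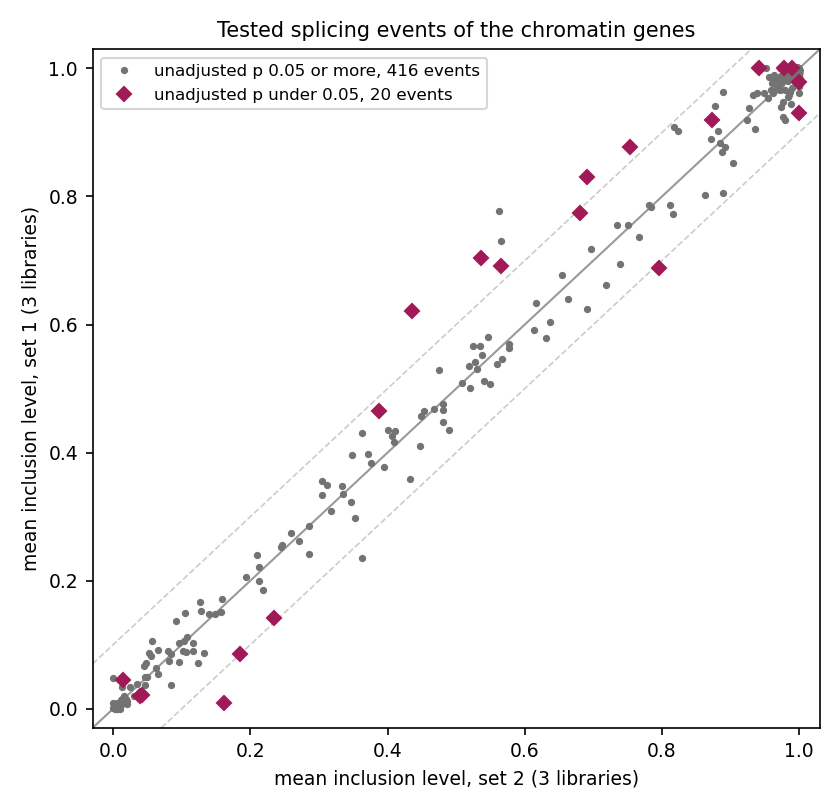
Mean inclusion level of the 436 tested events of the chromatin genes in set 2 (horizontal) and set 1 (vertical), each over 3 libraries. The solid line marks equal levels and the dashed lines a difference of 0.10, diamonds mark the 20 events with an unadjusted quasi-binomial p under 0.05, and 10 events lie outside the dashed lines.

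Among the histone demethylases, Kdm5a held the single call. KDM5A removes methyl groups from lysine 4 of histone H3. Its event is a choice of donor site at chr6:120399058-120399082 (GRCm38/mm10, plus strand), where the downstream donor adds 25 bases, not a multiple of 3, that GENCODE annotates only in a transcript marked for nonsense-mediated decay. The stretch is shown because it carries that call; capitals mark the 25 added bases, and 15 bases of the spliced RNA stand on each side.
Kdm5a added donor stretch: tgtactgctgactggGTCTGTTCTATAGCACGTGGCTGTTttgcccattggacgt
In set 1 the longer form had 0, 1 and 0 reads beside 22, 33 and 32 reads of the shorter form. In set 2 it had 8, 4 and 7 reads beside 20, 38 and 35. The sets did not overlap, with levels of 0, 0.0254 and 0 in set 1 and 0.256, 0.0831 and 0.147 in set 2. The mean was 0.00848 ± 0.015 (SD, n = 3) against 0.162 ± 0.088, a difference of -0.154. The authors' deposited table gives this event an adjusted p of 0.000319. The quasi-binomial test gave it the smallest unadjusted p of all member events, 0.00205, which did not pass adjustment. The call rests on 20 reads of the longer form, and the difference was -0.102 without library 1 of each set.

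A second event of Kdm5a stood apart in the other direction. An 82-base exon at chr6:120438444-120438525, annotated only in transcripts with no coding sequence there, had levels of 0.525, 0.564 and 0.774 in set 1 and 0.411, 0.457 and 0.438 in set 2. All libraries of set 1 lay above those of set 2 (difference 0.185, unadjusted p = 0.0092), and without library 3 of set 1 the difference was 0.109. The junction total of Kdm5a was 10.1, 23.7 and 27 CPM in set 1 and 21.2, 26.6 and 24.9 in set 2, so its first library in set 1 was the lowest.

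Kdm1a encodes LSD1, the demethylase of lysine 4 of histone H3 that works with CoREST and PHF21A, and it is known for a 12-base exon used in neurons. That exon and a 60-base exon near the start of the coding sequence, both on chromosome 4 and the minus strand, are shown because they define the known LSD1 forms. Capitals mark the alternative exon and lower case 15 bases of the joined exons on each side.
Kdm1a 12-base exon, chr4:136563438-136563449: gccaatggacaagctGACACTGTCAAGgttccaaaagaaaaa
Kdm1a 60-base exon, chr4:136582040-136582099: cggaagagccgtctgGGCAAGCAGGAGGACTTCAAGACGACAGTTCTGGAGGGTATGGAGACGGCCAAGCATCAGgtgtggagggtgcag
The 12-base neuronal exon was rare in these neuroblastoma cells, with 26 inclusion reads against 3122 skipping reads over the 6 libraries. Its levels were 0.00756, 0.00461 and 0.00219 in set 1 and 0.0169, 0.00204 and 0.00707 in set 2, and the sets overlapped. The 60-base exon was close to evenly used, at 0.548, 0.553 and 0.598 in set 1 and 0.53, 0.522 and 0.523 in set 2. The sets did not overlap, but the difference of 0.0412 did not pass the test (unadjusted p = 0.362).

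Phf21a, which encodes the PHD-finger protein BHC80 of the LSD1 complex, held 4 of the 21 events with non-overlapping sets. A UTR exon near the gene's start (chr2, plus strand) appears with 2 acceptors, as 112 bases at chr2:92215464-92215575 and as 127 bases at chr2:92215449-92215575, so those events share reads. The 112-base exon had levels of 0.869, 0.813 and 0.807 in set 1 and 0.688, 0.763 and 0.621 in set 2. For the 127-base form they were 0.736, 0.674 and 0.7 against 0.525, 0.615 and 0.47. Both were higher in every library of set 1, by 0.139 and 0.167 (unadjusted p = 0.0148 and 0.0344). A 365-base UTR exon at chr2:92187044-92187408 lay at 0.778, 0.7 and 0.714 against 0.524, 0.63 and 0.545 in one event, with a mean of 22.7 reads. The same exon, joined to other neighbours in a second event, was at 0.112 ± 0.045 (SD, n = 3) and 0.108 ± 0.033. In the coding part, the pair of a 23-base exon at chr2:92351609-92351631 and an exon at chr2:92351701-92351864 had levels of 0.691, 0.702 and 0.674 in set 1 and 0.782, 0.762 and 0.841 in set 2. The sets did not overlap, with a difference of -0.106 and an unadjusted p of 0.00555. None of these passed adjustment.

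The other demethylases were spliced in a nearly constant way. Kdm2a, Kdm2b, Kdm4a, Kdm5b and Kdm6b, whose products act on methylated lysines of histone H3, had 0 tested skipped exons with a level between 0.1 and 0.9. A rare 45-base exon of Kdm2a was at 0.103, 0.018 and 0.0222 in set 1 and had no inclusion read in set 2, on a mean of 28.7 reads. A 114-base coding exon of Kdm2b was at 0.977, 0.981 and 1 against 0.929, 0.972 and 0.968. The sets did not overlap in either exon, and neither passed the test (unadjusted p = 0.1 and 0.182). In Kdm3a, the gene of an H3K9 demethylase, a 53-base exon was at 0.151 ± 0.066 (SD, n = 3) in set 1 and 0.157 ± 0.057 in set 2, on levels of 0.075 to 0.219 in the single libraries. Without library 1 of each set its difference was 0.0637. Rcor1, the gene of the CoREST scaffold, had 1 event, with a difference of 0.00825.

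**Figure D2:**
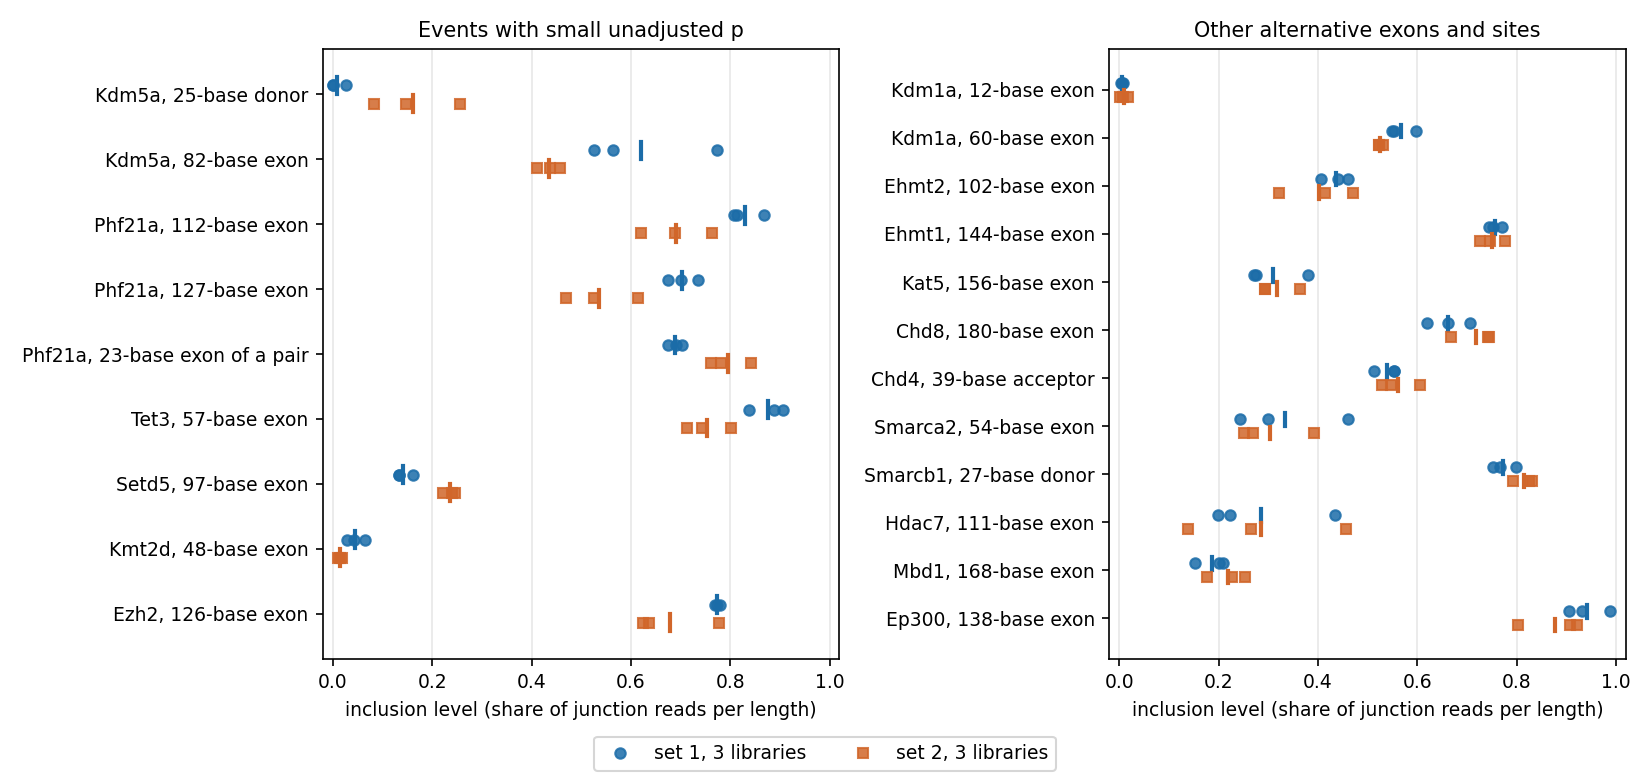
Inclusion level (horizontal, 0 to 1) of single libraries for the events with small unadjusted p described in the text (left) and for other alternative exons and splice sites of the group (right); circles are the 3 libraries of set 1, squares those of set 2, and short vertical lines the means. Both Kdm5a events, the Phf21a events, Tet3, Setd5 and Kmt2d show sets that do not overlap, and in the right panel the 60-base exon of Kdm1a does too.

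The H3K9 methyltransferases carried the skipped exon with the most reads on its rarer form, 1708, of all member events of that kind. Ehmt2 encodes G9a, and the exon shown here (chr17:34905610-34905711, plus strand, coding, 102 bases) is one whose use is known to rise in neuronal differentiation. Capitals mark the exon, with 15 bases of its neighbours on each side.
Ehmt2 102-base exon: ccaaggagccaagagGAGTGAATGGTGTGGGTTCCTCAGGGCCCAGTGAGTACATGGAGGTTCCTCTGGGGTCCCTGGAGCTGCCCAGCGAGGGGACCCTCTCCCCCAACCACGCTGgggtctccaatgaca
Its levels were 0.461, 0.441 and 0.405 in set 1 and 0.47, 0.413 and 0.321 in set 2. The range of set 2 covered that of set 1, and the difference of 0.0342 had an unadjusted p of 0.327. The partner enzyme GLP, encoded by Ehmt1, had 38 events, the most of any member. Its 144-base coding exon at chr2:24840636-24840779 (minus strand) was at 0.756 ± 0.014 (SD, n = 3) and 0.75 ± 0.025. With other neighbouring exons the same exon was at 0.991 in both sets. Exons of 64 and 67 bases of Ehmt1, which overlap at chr2:24887003-24887069, were lower in every library of set 1, with differences of -0.0277 and -0.0193, and rest on 11 skipping reads each. Setdb1, which silences retroelements, kept an intron of 1080 bases at a level of 0.241 ± 0.026 (SD, n = 3) in set 1 and 0.285 ± 0.055 in set 2. The 85-base intron of Suv39h1, a heterochromatin enzyme, was at 0.105 ± 0.022 and 0.103 ± 0.041. Of the 54 H3K9 events tested 0 passed, and the largest difference among them was below 0.10.

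Polycomb repressive complex 2 places the methyl mark on lysine 27 of histone H3 through EZH2 or EZH1, with EED and SUZ12 as core subunits and JARID2 as a cofactor. The 126-base coding exon of Ezh2 (chr6:47541845-47541970, minus strand) was the event of this complex with the smallest unadjusted p, 0.011. It was at 0.774, 0.769 and 0.779 in set 1 and at 0.778, 0.625 and 0.636 in set 2. One library of set 2 therefore lay among those of set 1, and the other two lay below them. The difference was 0.0942, below the minimum of 0.10, and 0.144 without library 1 of set 2. With the dispersion prior along the total count the adjusted p was 0.033, the only one under 0.05 that any setting gave for the events named here. The retained intron event of Ezh2, which spans this exon, was at 0.148 ± 0.06 (SD, n = 3) and 0.139 ± 0.013. A donor choice of 27 bases in Ezh2 was at 0.786 ± 0.038 (SD, n = 3) and 0.781 ± 0.016. Eed had an 89-base donor stretch at 0.92 ± 0.039 in set 1 and 0.873 ± 0.043 in set 2 (unadjusted p = 0.0426, sets overlapping). A 69-base coding exon of Suz12 was at 0.902 ± 0.041 and 0.882 ± 0.04, and its difference was 0.0609 without library 1 of each set.

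In the genes of DNA methylation, oxidation and its readers, Tet3 had the event with the smallest unadjusted p. TET3 oxidises methylcytosine. A 57-base coding exon (chr6:83441217-83441273, minus strand) is shown because its libraries separated by set; capitals mark the exon.
Tet3 57-base exon: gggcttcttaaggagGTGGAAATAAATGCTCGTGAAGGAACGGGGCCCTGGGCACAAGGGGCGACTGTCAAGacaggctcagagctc
It was included at 0.906, 0.837 and 0.888 in set 1 and at 0.802, 0.744 and 0.712 in set 2. Every library of set 1 was above every library of set 2, by 0.124 in the means (unadjusted p = 0.0266, not passing adjustment). The same exon also forms a mutually exclusive pair with a 731-base exon at chr6:83454750-83455480. In that event the inclusion form carries the 731-base exon, so a higher level means less of the 57-base exon. The level was 0.579 ± 0.025 (SD, n = 3) in set 1 and 0.631 ± 0.056 in set 2, with overlapping sets. As a skipped exon with other neighbours, the 57-base exon was at 0.993 in both sets.

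Dnmt3b, a de novo DNA methyltransferase known for forms that lack part of the catalytic domain, was read thinly. Its 119-base coding exon (chr2:153684359-153684477) was mostly skipped, at 0.137 ± 0.039 (SD, n = 3) and 0.0909 ± 0.041, with 36.7 reads per library. A 115-base UTR exon of Dnmt3b was at 0.436 ± 0.11 and 0.489 ± 0.054, a difference of -0.0534 that was 0.0112 without library 1 of each set. In Mbd1, which binds methylated CpG, a 168-base coding exon was at 0.152, 0.2 and 0.208 in set 1 and 0.253, 0.227 and 0.176 in set 2, so the sets overlapped. Its difference of -0.0323 was 0.0022 without library 1 of each set. A 24-base acceptor stretch of Uhrf1, which brings DNMT1 to replicated DNA, was at 0.877 ± 0.02 and 0.892 ± 0.02. Tet2 had 2 events, both below the count minimum. Dnmt3a, the other de novo methyltransferase, skipped a 234-base exon in 3 reads, all of set 1.

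Histone deacetylases and the SIN3 scaffolds had 53 tested events, of which 1 differed by 0.10 or more, a mutually exclusive pair of Hdac7 at 0.236 ± 0.085 (SD, n = 3) and 0.362 ± 0.094 with overlapping sets. Hdac7, a class IIa deacetylase, had a 111-base coding exon at 0.198, 0.434 and 0.223 in set 1 and 0.456, 0.264 and 0.138 in set 2. The libraries of each set spread widely and the sets overlapped. The difference was -0.000853 over all 6 libraries and 0.128 without library 1 of each set. A 112-base exon of Hdac5, found in no transcript annotated as protein-coding, was at 0.105 ± 0.026 (SD, n = 3) and 0.0561 ± 0.013 with sets that did not overlap (unadjusted p = 0.137). Hdac6, which deacetylates tubulin in the cytoplasm, retained a 73-base intron at 0.0565, 0.162 and 0.0389 in set 1 and 0.146, 0.28 and 0.127 in set 2 (unadjusted p = 0.0456, sets overlapping). Hdac3, the enzyme of the NCoR complex, had 4 retained introns, of which the 377-base one was at 0.0893 ± 0.033 and 0.117 ± 0.055, a difference of -0.0272 that was 0.013 without library 1 of each set. Sin3a had a 108-base UTR exon at 0.624 ± 0.11 and 0.69 ± 0.11.

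The remodellers held several mixtures of forms, none of which passed the test. In Chd4, the ATPase of the NuRD complex, an acceptor choice of 39 bases (chr6:125102432-125102470) was at 0.539 ± 0.024 (SD, n = 3) and 0.56 ± 0.04, with 573.3 reads per library. Without library 1 of each set its difference changed sign, from -0.0215 to 0.0146. A 180-base coding exon of Chd8, a remodeller whose gene is linked to autism, was at 0.707, 0.62 and 0.661 in set 1 and 0.742, 0.667 and 0.744 in set 2, with overlapping sets. Chd3, another NuRD ATPase gene, used an 18-base acceptor stretch at 0.426 ± 0.089 and 0.406 ± 0.072, a difference of 0.0207 that was -0.0482 without library 1 of each set. Of the 29 tested events of the CHD genes, 0 had an unadjusted p under 0.05, where 3.8% of all tested events did.

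Smarca2 and Smarca4 encode BRM and BRG1, the alternative ATPases of the BAF complexes. A 54-base exon of Smarca2 near the bromodomain (chr19:26759878-26759931, plus strand) is shown as the known alternative exon of BRM, and capitals mark it.
Smarca2 54-base exon: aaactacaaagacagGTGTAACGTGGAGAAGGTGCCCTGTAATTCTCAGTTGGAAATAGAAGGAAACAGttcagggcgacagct
It was at 0.299, 0.46 and 0.243 in set 1 and 0.392, 0.269 and 0.251 in set 2 with a mean of 38.5 reads per library, and the sets overlapped. In Smarca4 a 9-base acceptor stretch was at 0.396 ± 0.036 (SD, n = 3) and 0.348 ± 0.054. A rare 99-base coding exon of Smarca4 was at 0.0272, 0.019 and 0.0178 in set 1 and 0.0642, 0.037 and 0.0248 in set 2 (unadjusted p = 0.0221, sets overlapping by 1 library). The core subunit gene Smarcb1 used a 27-base donor stretch at 0.773 ± 0.023 and 0.816 ± 0.021. Smarce1 included a 52-base exon at 0.884 ± 0.028 and 0.885 ± 0.01. A 344-base donor stretch of Arid1a had a mean level of 1 in set 1 and 0.978 in set 2, with sets that did not overlap (unadjusted quasi-binomial p = 0.0144). A 90-base exon of Arid1a had no skipping read in set 1 and was at 0.996, 0.991 and 0.979 in set 2. Its difference of 0.0114 rests on 8 skipping reads (unadjusted quasi-binomial p = 0.026). Neither passed adjustment. ARID1A is the large DNA-binding subunit of BAF. Arid1b, its paralogue, had a 111-base coding exon at 0.0712, 0.128 and 0.061 against 0.135, 0.13 and 0.133, again with sets that did not overlap and an unadjusted p of 0.242.

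Among the methyltransferases of lysines 4 and 36 of histone H3, Setd5 and Kmt2d held the other 2 events that passed in the authors' deposited table without a minimum change. Setd5, a SET-domain gene linked to intellectual disability, skipped a 97-base exon (chr6:113105665-113105761) more in set 1, at 0.161, 0.133 and 0.132, than in set 2, at 0.24, 0.245 and 0.221. The sets did not overlap, and the change of -0.0933 had an adjusted p of 0.0365 in the authors' deposited table and an unadjusted quasi-binomial p of 0.0155. The 97-base exon is annotated only in transcripts with no coding sequence there. A 106-base coding exon of Setd5 was at 0.846, 1 and 0.944 in set 1 and at 1 in every library of set 2, on 7 skipping reads. Kmt2d, which places methyl groups at enhancers, has a rare 48-base coding exon (chr15:98836581-98836628, minus strand), shown because it passed there; capitals mark the exon.
Kmt2d 48-base exon: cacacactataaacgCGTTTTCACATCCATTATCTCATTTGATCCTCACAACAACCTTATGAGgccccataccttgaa
It had 9, 18 and 8 inclusion reads in set 1 and 5, 2 and 4 in set 2, beside 140 to 248 skipping reads per library. The levels were 0.0278, 0.0643 and 0.0416 in set 1 and 0.0151, 0.00936 and 0.0188 in set 2, which did not overlap. The authors' deposited table gives it an adjusted p of 0.0272, and the unadjusted quasi-binomial p was 0.0187.

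Kmt2c, the paralogue of Kmt2d, had 4 tested coding stretches in mixed use. A 120-base exon (chr5:25366077-25366196, minus strand) was at 0.842, 1 and 0.882 in set 1 and 0.904, 0.754 and 0.794 in set 2. Its sets overlapped, and the difference of 0.0907 (unadjusted p = 0.0762) was 0.167 without library 1 of each set. The 213-base exon was at 0.566 ± 0.044 (SD, n = 3) and 0.534 ± 0.11, the 105-base exon at 0.553 ± 0.021 and 0.537 ± 0.048, and a 12-base donor stretch at 0.335 ± 0.016 and 0.335 ± 0.095. In Setd5 an acceptor stretch of 57 bases was at 0.457 ± 0.034 and 0.448 ± 0.019. The differences of these last 4 stretches reached at most 0.0314 over all 6 libraries. Kmt2a, the gene of MLL1, had a mutually exclusive pair at 0.692 ± 0.055 and 0.565 ± 0.12 with overlapping sets, a difference that was 0.0435 without library 1 of each set. Both exons of this pair were at 0.998 as skipped exons, so its level compares the junctions of constant exons.

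The acetyltransferases on the list are p300 (Ep300) and TIP60 (Kat5). Kat5 has a 156-base coding exon (chr19:5608802-5608957, minus strand) whose skipping gives the shorter TIP60 form, and it is shown for that reason; capitals mark the exon.
Kat5 156-base exon: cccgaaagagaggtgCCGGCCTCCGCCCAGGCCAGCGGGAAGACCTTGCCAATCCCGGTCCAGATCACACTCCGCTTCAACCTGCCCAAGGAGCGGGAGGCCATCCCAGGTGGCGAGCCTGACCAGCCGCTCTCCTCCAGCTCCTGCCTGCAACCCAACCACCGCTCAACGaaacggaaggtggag
The skipping form was the more common one, with levels of 0.271, 0.276 and 0.38 in set 1 and 0.363, 0.294 and 0.294 in set 2. The sets overlapped, and the difference was -0.0078, or 0.034 without library 1 of each set. A 138-base coding exon of Ep300 was included at 0.905, 0.931 and 0.988 in set 1 and at 0.803, 0.922 and 0.907 in set 2 (unadjusted p = 0.0661, sets overlapping).

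Tandem acceptor sites 3 bases apart, at which the choice adds or leaves out a single codon's length, made up 11 of the 36 alternative acceptor events of these genes (30.6%), against 19.1% of such events in the whole table. They lay in 10 genes, and 7 of the 10 tested were used at a level between 0.1 and 0.9. In all 11 the 3 alternative bases ended in AG, as in 99.3% of the 614 such events of the whole table whose letters were read (sense strand only), since the last letters of the stretch are the downstream acceptor. The 3 bases were CAG in 8, AAG in 2 and TAG in 1. The sites below are shown because they were in mixed use; capitals mark the 3 bases kept when the upstream acceptor is chosen, with 15 bases of spliced RNA on each side.
Dnmt1, chr9:20940552-20940554, minus strand: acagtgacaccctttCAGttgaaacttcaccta
Setd2, chr9:110592399-110592401, plus strand: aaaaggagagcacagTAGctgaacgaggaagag
Hdac5, chr11:102218488-102218490, minus strand: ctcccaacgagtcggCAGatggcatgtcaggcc
Smarca4, chr9:21699800-21699802, plus strand: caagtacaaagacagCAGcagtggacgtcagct
Dnmt3b, chr2:153675726-153675728, plus strand: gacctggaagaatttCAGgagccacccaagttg
Phf21a, chr2:92326913-92326915, plus strand: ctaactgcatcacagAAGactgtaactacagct
The levels ranged over the tested genes from 0.0852 (Arid1a) to 0.97 (Kmt2c). Dnmt1, the maintenance methyltransferase, kept the 3 bases at 0.591, 0.601 and 0.549 in set 1 and 0.567, 0.568 and 0.507 in set 2. Setd2, the methyltransferase of lysine 36 of histone H3, kept them at 0.659, 0.674 and 0.702 and at 0.734, 0.62 and 0.607. Both sites were in mixed use in every library, with overlapping sets, and the Setd2 difference of 0.0248 was 0.0748 without library 1 of each set. Among the tested sites Dnmt3b showed the widest gap, at 0.681, 0.84 and 0.81 against 0.694, 0.597 and 0.397. Its sets overlapped, with a mean of 21.2 reads and an unadjusted p of 0.0903. Hdac5 kept the bases at 0.349 ± 0.041 (SD, n = 3) and 0.312 ± 0.043, and Smarca4 at 0.737 ± 0.07 and 0.767 ± 0.019. Phf21a was close to evenly divided, at 0.529 ± 0.07 and 0.475 ± 0.065. Of the 10 tested sites, 0 had sets that did not overlap, where 5.93% of all tested events did. A second site of Phf21a had a mean of 9.8 reads and was not tested. The authors' deposited table gives it a wider difference, 0.246, with an adjusted p of 0.102. How the aligner treated such neighbouring sites is not given in the labels or headers.

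**Figure D3:**
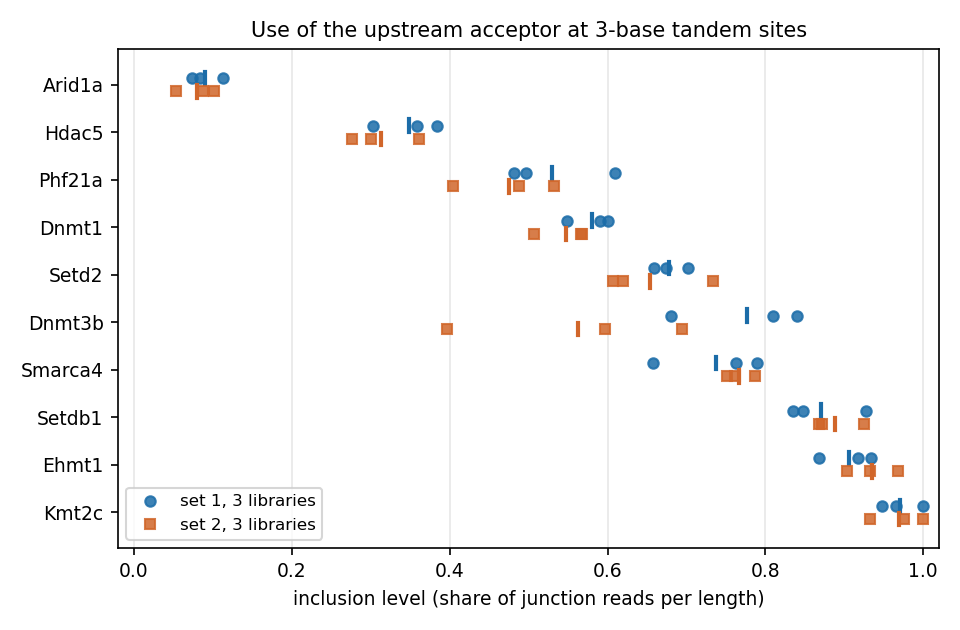
Use of the upstream acceptor (horizontal, inclusion level from 0 to 1) at the 10 tested 3-base tandem sites of the chromatin genes, ordered by mean level; circles are libraries of set 1, squares libraries of set 2, and vertical lines the means. Most sites are in mixed use, from Arid1a at 0.0852 to Kmt2c at 0.97, and at every site the sets overlap.

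Exons in mixed use more often had a length that is a multiple of 3 than constant exons did, in the members as in the whole table. This is a description with no test. Of the skipped exons between 0.1 and 0.9, 19 of 32 (59.4%) had a length that is a multiple of 3, against 37.9% of those over 0.9. Over all tested skipped exons of the table the shares were 52.9% and 38.6%, and over skipped exons of any level 40.7% for the members and 40.8% for all. The histone demethylases went the other way, with 1 of 7 (14.3%) against 44.4%, while every other role group went the same way as all members. Those groups were small, from 1 exon in mixed use (acetyltransferases) to 7 (H3K4 and H3K36 methyltransferases). Exons in UTRs and in noncoding transcripts, which have no frame to keep, are counted too. Events that share an exon are counted separately.

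Mutually exclusive pairs supplied 40 of the 107 events between 0.1 and 0.9. Most of the tested pairs, counted at any level, were made of exons that were otherwise constant. Of 51 tested pairs, 39 had both exons also listed as skipped exons, and in 32 of these both exons were included at 0.95 or more. The pair levels in these 32 ranged from 0.00104 to 0.955 with a median of 0.494, and such a level sets the junctions of one constant exon against those of another. The pair with the most reads on its rarer form, in Hdac2, was at 0.501 ± 0.019 (SD, n = 3) and 0.52 ± 0.016, and both of its exons were at 1 as skipped exons. Of the other 4 kinds, 67 events in 36 genes lay between 0.1 and 0.9, namely 32 skipped exons, 20 acceptor choices, 8 retained introns and 7 donor choices. Retained introns were mostly low, with a median level of 0.0778 over 22 tested and 13 below 0.1, though the highest was at 0.933. The intron of Chd4 (84 bases, a mean of 529.5 reads) was at 0.148 ± 0.033 (SD, n = 3) and 0.148 ± 0.025.

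By junction total, no member passed. The reads of the best-covered event of each gene, scaled to CPM, stood in for expression, and they follow the use of that event as well as the gene's expression. Of 55 member genes measured, limma called 0 (1.06% of all 8281 genes), and 3 had an unadjusted p under 0.05 (5.45%; 9.44% of all). The sets did not overlap in 5 members (9.09%; 14.1% of all genes). The median log2 ratio was 0.018 over the members and 0.01 over all genes, and 49 members lay within 0.25 of 0.

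Sin3b, a scaffold of the SIN3 deacetylase complex, stood at 84.1, 86.5 and 84.2 CPM in set 1 and 70.8, 51.2 and 71.9 in set 2. Its sets did not overlap, with a log2 ratio of 0.41 ± 0.15 (SE; limma, adjusted p = 0.334), and 0.25 without library 2 of set 2. Hdac7 had the largest ratio, 0.61 ± 0.27 (limma, adjusted p = 0.5), from 13.5, 28.9 and 22.1 CPM against 10, 14 and 16. Its sets overlapped, and the ratio was 0.37 without library 2 of set 1. Uhrf1 was at 225, 265 and 291 CPM against 195, 219 and 226, a ratio of 0.28 ± 0.12 (limma, adjusted p = 0.437) with overlapping sets. Tet3 had a ratio of 0.38 ± 0.36 that ranged from 0.01 to 0.82 as single libraries were left out.

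On the lower side, Chd8 was at 70.3, 70.6 and 72.2 CPM in set 1 and 82.7, 83.2 and 85.7 in set 2. The libraries of each set lay close together and apart from the other set, and the log2 ratio was -0.24 ± 0.12 (SE; limma, adjusted p = 0.57). With the reads summed over all events of Chd8 it was -0.14. Kdm5a had a ratio of -0.35 ± 0.29 (limma, adjusted p = 0.83), which was 0.07 without library 1 of set 1 and -0.11 with reads summed over all events. Kmt2e, a trithorax-related gene, had -0.23 ± 0.16, and -0.02 without library 1 of each set. Phf21a, Suv39h1 and Ezh1 were higher in every library of set 1, with ratios of 0.18 ± 0.16, 0.16 ± 0.12 and 0.3 ± 0.2, none of which passed; that of Ezh1 was 0.1 with reads summed over all events.

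**Figure D4:**
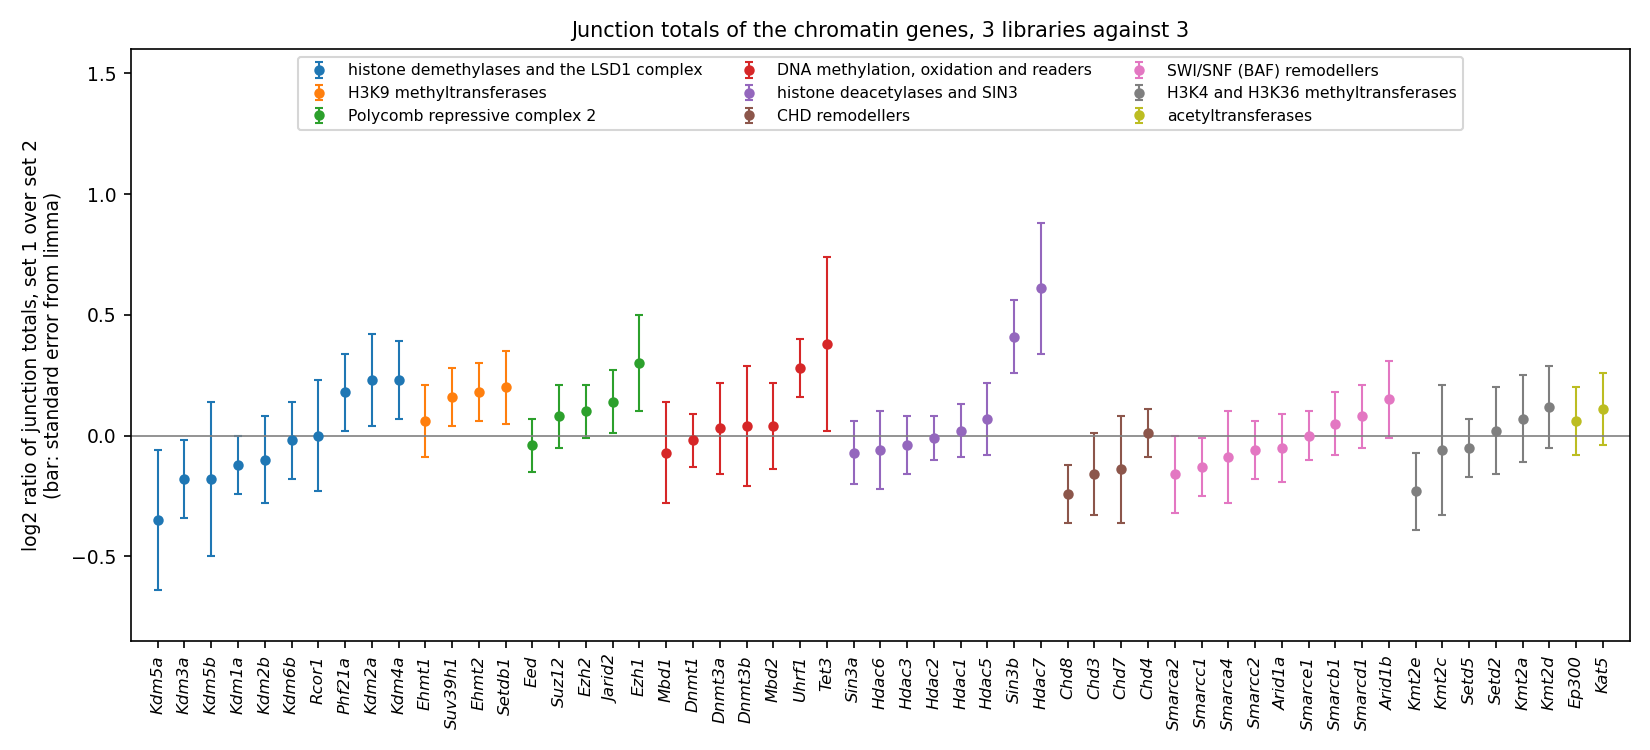
Log2 ratio of junction totals, set 1 over set 2 (vertical), for the 55 measured chromatin genes, ordered within 9 role groups shown by colour; points are estimates from 3 libraries against 3 and bars their standard errors from limma. The ratios run from -0.35 for Kdm5a to 0.61 for Hdac7, and no gene passed the adjusted test.

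The rest of the chromatin machinery was taken from 8 lists by function, 172 genes that are not members, of which 159 had an event. Of their 943 tested events the quasi-binomial test called 0, where it called 0.0279% of all tested events. An unadjusted p under 0.05 was reached by 22 of the 943, where 3.8% of all tested events reached it. The authors' deposited table called 3 of their 1010 events, where it called 0.645% of all events. These were a 96-base exon of Dot1l, the H3K79 methyltransferase (-0.275 on a mean of 13.5 reads), and exons of the Polycomb genes Asxl2 (0.195) and Phc3 (0.183). In the authors' deposited table their adjusted p-values were 0.0097, 0.0171 and 0.0335. A 77-base exon of Morf4l2, a subunit of acetyltransferase complexes, had a quasi-binomial adjusted p of 0.0113 but a difference of 0.0279, at 0.979, 0.979 and 0.963 in set 1 and 0.946, 0.962 and 0.929 in set 2.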

How the data were processed

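Per the labels' protocols, total RNA was extracted with Trizol and prepared with a NEBNext Ultra RNA kit. Per the submitters' processing notes, HTSeq 0.6.0, HISAT2 2.1.0, Bowtie2 2.2.3 and mm10 were used, in roles the notes leave out; the program behind the splicing table, and its annotation, are not given in the sources used. The deposited table gives, per the file headers, junction counts of 2 forms, form lengths, inclusion levels, p-values and adjusted p-values, with 3 libraries per set in 1 cell. Levels recomputed from the deposited counts and lengths differed by at most 0.0005.

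Testing took events whose mean count reached 20, in R 4.3.3, with a moderated quasi-binomial test rebuilt for this work (dispersion moderated along the reads of the rarer form, never below 1). Earlier forms of this test on these data were known, and over all events calls depend on the form. Junction totals were tested as log2(CPM + 1), with limma 3.58.1 and a mean-variance trend. Both were adjusted by Benjamini-Hochberg over all events or genes, and tested on simulated data. Coordinates are 1-based; annotations and sequences are from GENCODE release M21 (GRCm38), in which 472 of 472 member events lay inside their gene.

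The members, lists and tests were chosen with earlier results of these data known. Named events are those called, the 6 of smallest p, in each role group up to 4 genes with the most reads on the rarer form (also without mutually exclusive pairs, added), exons of known biology, the 3 largest and 3 smallest gene ratios, and, chosen after their values were seen, events and genes whose sets did not overlap or whose unadjusted p was under 0.05, changes of 0.10 or more, 3-base acceptors and a few exons described beside these. Some named events, also some with an unadjusted p under 0.05, are not described above. Alternatives changed the test, count minimum, dispersion prior, pseudocount, scaling, gene summary and libraries. Junction totals of the other chromatin genes and the level of glial markers are not reported here.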

Additional observations from a re-analysis of the deposited data

How the results depend on the processing

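The counts of 0 member events (quasi-binomial test) and 0 member genes (limma) called held under all 11 alternatives for the events and 12 for the genes, with 12 to 29 events and 0 to 5 genes at an unadjusted p under 0.05. The events called over the whole table numbered 11, with 0 by limma on logit levels, 64 with the dispersion prior along the total count, 4 without library 1 of each set and 2 to 19 with 1 library left out. The genes called over the whole table numbered 88, with 282 without library 1 of set 1, 26 without library 2 of set 1 and 402 without library 1 of each set; the cause was not tested. The member events called in the authors' deposited table numbered 1, 0 with a change of 0.20 or more and 3 with no minimum change. The median absolute change of 0.0063 was 0.00677 to 0.00801 with 1 library left out, which leaves fewer libraries in each mean. The median log2 ratio was 0.0032 to 0.052 over its alternatives. Of 1462 recomputed values of the 123 named events and genes, 1454 stayed within 1 SD, and 109, of 50 events or genes, changed sign. Beside those given with their genes, 2 moved by over 1 SD without library 1 of each set, to -0.00224 for an intron of Chd8 and -0.0159 for the 3-base site of Arid1a. Alternatives for the medians with voom weights or without library 1 of each set were chosen after seeing the data. No paired analysis was possible because the table numbers no replicates inside a set. Depth limits the thin events most: 20 reads of the longer form underlie the Kdm5a call.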
